A study of Mus musculus with 24 samples.

Results

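The B cell markers described here are 9 genes, namely Cd79a, Cd79b and Blk of the B cell receptor complex, the inhibitory co-receptors Cd22 and Cd72, the surface antigens Ms4a1 and Cd37, and the complement and IgE receptors Cr2 and Fcer2a. They were measured with the 13 probe sets annotated to those genes alone, of 22644 probe sets on the Affymetrix MOE430A array, and all 13 were among the 20537 probe sets kept for testing. Ms4a1, Cd22, Cd37 and Fcer2a had 2 probe sets each. A second probe set of a gene reads the same gene in the same RNA and is no independent replicate.

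Whole-lung RNA was measured on 24 arrays in 8 groups of 3, and each array was taken as 1 mouse. Tnfr-/- mice lacked both TNF receptors, TNFR1 (Tnfrsf1a) and TNFR2 (Tnfrsf1b), in every cell from birth, and were of the strain B6.129S-Tnfrsf1a tm1Imx Tnfrsf1b tm1Imx/J, bought from the Jackson Laboratories. Tnfr+/+ mice were C57BL/6J. An effect of other strain differences, near the disrupted genes or elsewhere in the genome, thus cannot be told apart from that of the missing receptors. Young adult males of each genotype breathed 0.3 ppm ozone (O3) without a break for 24, 48 or 72 h, or filtered air in a parallel chamber, and the air arrays were the control of all 3 O3 times in their genotype.

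B cells recognise antigen through a membrane immunoglobulin that signals by way of the CD79A and CD79B chains, and the SRC-family kinase BLK acts just below them. CD22 and CD72 dampen that signal, whereas complement receptor 2 (Cr2) lowers the threshold for it by binding antigen coated with complement. In a resting lung, B cells are a minority lymphocyte of the tissue, its retained blood and its small lymphoid aggregates, and in mice TNFR1 is required for B cell follicles to form normally in lymphoid organs.

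RefSeq promoter sequences (GRCm38.p6) were available for 6 of the 9 genes, with 8 windows of 250 bases before an annotated start, and they are shown because the markers moved together across the arrays. Motifs typical of B cell promoters, and the TATA box TATAAA, were searched on both strands. The ETS motif AGGAAGT, read by factors such as PU.1 and SPIB, was in 3 of the 8 windows (Cd79a, Cd37 and Cd72). Of all 32851 windows of that length, 7.69% held it. The palindromic motif of EBF1, a factor that specifies the B lineage, was in 1 of the 8 (Cd22) and in 0.779% of all windows. The octamer ATGCAAAT was in 0 of the 8 and in 1.6% of all windows. TATAAA was in 1 of the 8 (Fcer2a) and in 12.4% of all windows. The sequences below run 5′ to 3′ on the strand of the gene, with the motif in capitals (ACTTCCT is the ETS motif on the other strand). The Cd79a and Fcer2a windows end at the first base before the gene, chr7:24897247-24897496 on the plus strand and chr8:3694175-3694424 on the minus strand. The other 3 are stretches of 30 bases around the motif, before a start that lies within the span of the gene, at chr7:30879058-30879087 (Cd22), chr7:45238846-45238875 (Cd37) and chr4:43454657-43454686 (Cd72), all on the minus strand.
Cd79a: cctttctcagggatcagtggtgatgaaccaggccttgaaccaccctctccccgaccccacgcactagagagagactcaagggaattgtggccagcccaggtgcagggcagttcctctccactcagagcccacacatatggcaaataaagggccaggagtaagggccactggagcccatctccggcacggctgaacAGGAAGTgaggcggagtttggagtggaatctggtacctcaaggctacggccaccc
Fcer2a: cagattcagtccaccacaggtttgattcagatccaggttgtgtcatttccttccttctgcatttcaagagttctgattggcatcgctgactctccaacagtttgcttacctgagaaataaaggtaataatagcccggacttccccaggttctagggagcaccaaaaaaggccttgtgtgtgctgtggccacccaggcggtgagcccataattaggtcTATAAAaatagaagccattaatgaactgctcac
Cd22: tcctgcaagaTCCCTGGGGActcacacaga
Cd37: acccccccggaACTTCCTctttctctgccg
Cd72: gccaaagacctACTTCCTcttttatgactt
The motif lay 55 to 49 bases before the start in Cd79a, 33 to 28 in Fcer2a, 49 to 40 in Cd22, 25 to 19 in Cd37 and 49 to 43 in Cd72. A match describes these letters only, and binding was not measured.

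Signals below are array intensities on a linear scale after quantile normalization over the 24 arrays, and differences are on the log2 scale from a limma fit to all 24 arrays. Calls were made where the p-value, adjusted by Benjamini-Hochberg across all 20537 tested probe sets, was below 0.05. The arrays had similar median signals (213 to 247 before normalization), and no array repeated another. Replicate 1 of Tnfr+/+ 72 h O3 stood apart, with a 3′ to 5′ Gapdh signal ratio of 4.45 against 0.890 to 1.74 on the other arrays. Tnfrsf1b signal on the probe set 1418099_at was lower in the Tnfr-/- groups than in the Tnfr+/+ groups at every exposure (group means 197 to 243 against 382 to 470). The other Tnfrsf1b probe set, 1448951_at, was not called between the genotypes at any exposure or in their mean (log2 -0.14, adjusted p = 0.62), and where either lies relative to the disrupted part of the gene is not known here. Tnfrsf1a passed the test only in the mean over exposures (log2 -0.41, adjusted p = 0.037). The lung epithelial and endothelial list, 12 genes with a summed signal of 151692 to 157182 in Tnfr-/- and 153277 to 159347 in Tnfr+/+ lungs at 24 h of O3, had no member called between the genotypes at that time.

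All 9 markers gave signals above the low end of the arrays. At least 1 probe set of each exceeded 52.2, the signal at the 20th percentile, on all 24 arrays. The second probe sets of Ms4a1 (1450912_at), Cd22 (1419769_at) and Fcer2a (1451713_a_at) reached it on 17, 15 and 6 arrays, so their signals were near the lower end of the scale and their folds are unsure.

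The markers had a common high point. Every one of the 13 probe sets had its highest group mean in Tnfr-/- lungs after 24 h of O3. In 7 of them the lowest of these 3 arrays was above the highest array of the group next in order, and in 5 (Cd79a, Cd79b, Cd22 1419768_at, Cd37 1419206_at and Fcer2a 1422122_at) it was above all 21 other arrays. Below that group, neighbours in the order of group means overlapped in all but 1 of 78 pairs (Cd22 1419769_at, where Tnfr-/- 48 h O3 was above Tnfr+/+ 24 h O3), so the order of the other groups was not resolved. Tnfr-/- air was next in 9 probe sets. The lowest group mean was that of Tnfr+/+ 24 h O3 in 7 probe sets. For Cd79b the lowest Tnfr-/- 24 h O3 array was barely above the highest other array, 957 against 956. The share of all probe sets that met any of these conditions was not counted, so these counts are a description only.

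**Figure D1:**
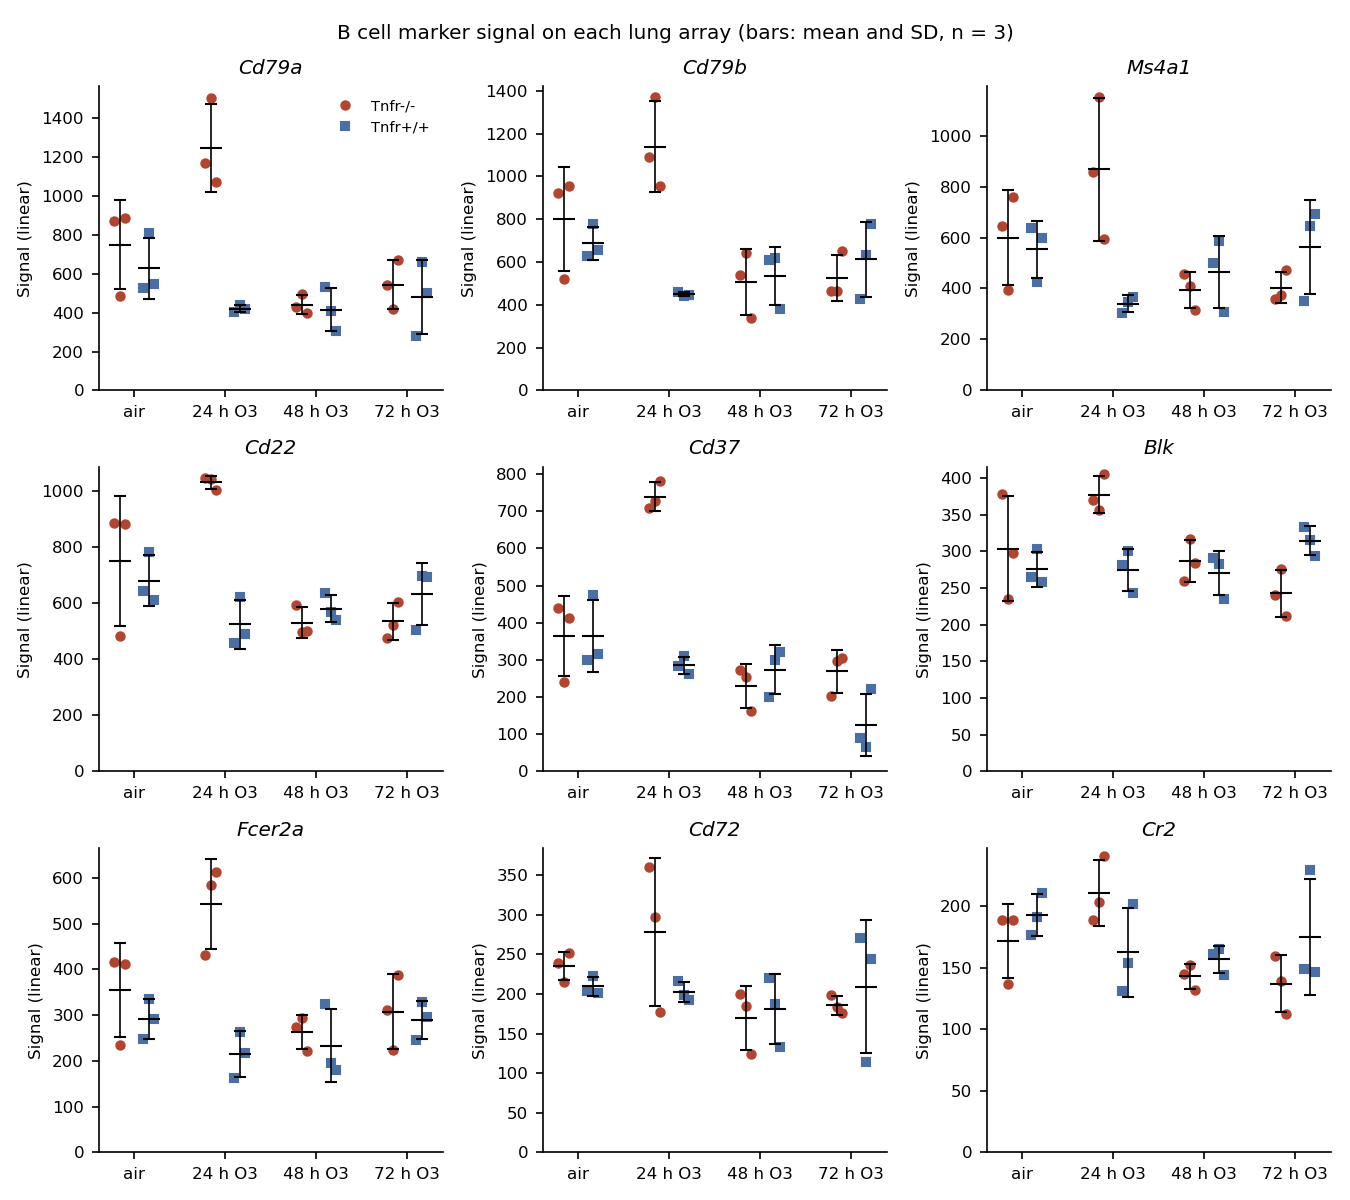
Signal (linear) of each B cell marker by exposure, for its probe set with the highest mean, with Tnfr-/- arrays as circles to the left of Tnfr+/+ arrays as squares and bars for mean and SD (n = 3). Cd79a averaged 1247 in Tnfr-/- and 420 in Tnfr+/+ lungs at 24 h of O3, whereas the genotypes overlapped in air and at 48 and 72 h.

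The first comparison asked whether B cell markers differed between the genotypes after 24 h of O3. All 9 genes were higher in Tnfr-/- than in Tnfr+/+ lungs, with a median difference of 1.30 on the log2 scale (2.47-fold), where the median of all probe sets was -0.01. The difference passed the test for 6 of the 13 probe sets, from Cd79a, Cd79b, Ms4a1, Cd22 (both probe sets) and Fcer2a, and 0.584% of all probe sets were called higher in this comparison. The arrays of the genotypes did not overlap in 11 of the 13, against 12.0% of all probe sets in that direction. Signs of RNA quality differed between the same arrays. The 3′ to 5′ signal ratio of Gapdh was 1.12, 1.03 and 1.22 in Tnfr-/- against 1.53, 1.74 and 1.54 in Tnfr+/+ lungs at 24 h, and that of actin was 1.10, 1.01 and 1.16 in Tnfr-/- against 1.47, 1.95 and 1.31 in Tnfr+/+ lungs, without overlap in either. The ratios also differed without overlap at 48 h of O3. Gapdh was then 1.08, 1.01 and 1.13 in Tnfr-/- against 1.32, 1.30 and 1.33 in Tnfr+/+ lungs. Actin was 1.10, 1.03 and 1.04 in Tnfr-/- against 1.21, 1.29 and 1.13 in Tnfr+/+ lungs. The part of RNA quality in the marker difference was not tested. These RNAs came from whole lung, in which more B cells and more of each RNA per B cell cannot be told apart.

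The signalling chains of the receptor showed the difference plainly. Cd79a (1418830_at, chr7:24897497-24901858 in GRCm38.p6) had signals of 1169, 1504 and 1069 in Tnfr-/- lungs at 24 h of O3, against 403, 441 and 418 in Tnfr+/+ lungs. Every Tnfr-/- array was far above the highest Tnfr+/+ array. The log2 difference was 1.55 ± 0.30 (SE, n = 3 mice each; 2.94-fold, adjusted p = 0.018).

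Cd79b (1417640_at, chr11:106311341-106314562) encodes the partner chain. It had 1090, 1370 and 957 in Tnfr-/- lungs and 459, 443 and 447 in Tnfr+/+ lungs at that time, a log2 difference of 1.33 ± 0.28 (2.51-fold, adjusted p = 0.026). The 3 Tnfr+/+ arrays lay close together, with a coefficient of variation of 1.90%. Blk (1422775_at, chr14:63372837-63417187), the kinase below the receptor, had 370, 356 and 405 in Tnfr-/- lungs and 281, 300 and 243 in Tnfr+/+ lungs. The Blk arrays did not overlap, but the difference of 0.46 ± 0.16 did not pass (adjusted p = 0.18).

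The inhibitory co-receptors differed from each other. Cd22 (1419768_at, chr7:30865404-30880342) had 1045, 1044 and 1005 in Tnfr-/- lungs, a spread of 2.24%, against 459, 624 and 490 in Tnfr+/+ lungs. The Cd22 difference was 0.99 ± 0.20 (1.98-fold, adjusted p = 0.022). The dimmer Cd22 probe set (1419769_at) had 143, 189 and 88.4 in Tnfr-/- lungs and 24.8, 26.5 and 14.7 in Tnfr+/+ lungs, where it was under 52.2 on all 3 arrays. Its difference of 2.65 ± 0.53 also passed (adjusted p = 0.021), although a fold against signals that low is uncertain. Cd72 (1426112_a_at, chr4:43447724-43455102) had 360, 298 and 177 in Tnfr-/- lungs against 216, 198 and 192 in Tnfr+/+ lungs. The Cd72 groups overlapped, as replicate 3 of the Tnfr-/- lungs was below all 3 Tnfr+/+ arrays (difference 0.40 ± 0.29, adjusted p = 0.57, 95% interval -0.20 to 1.00).

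Ms4a1 encodes CD20, a surface antigen found on B cells before they become plasma cells. On 1423226_at (chr19:11249679-11266149) it had 859, 1152 and 593 in Tnfr-/- lungs, against 305, 348 and 368 in Tnfr+/+ lungs. All Tnfr-/- arrays were higher, with a wide spread among themselves (868 ± 280, SD). The difference of 1.30 ± 0.31 was just past the threshold (2.47-fold, adjusted p = 0.049). The dimmer Ms4a1 probe set had 123, 161 and 80.9 against 44.7, 48.5 and 43.4, a difference of 1.36 ± 0.54 that did not pass (adjusted p = 0.26).

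Cd37 is a tetraspanin carried mainly by B cells and at lower levels by other leukocytes. On 1419206_at (chr7:45233632-45239340) it had 708, 729 and 782 in Tnfr-/- lungs and 283, 310 and 263 in Tnfr+/+ lungs. The groups were wide apart at this time, but the difference of 1.38 ± 0.35 did not pass (2.60-fold, adjusted p = 0.069). The other Cd37 probe set (1425736_at) had 391, 314 and 311 against 226, 245 and 287, without overlap and with a smaller difference of 0.42 ± 0.21 (adjusted p = 0.37).

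Fcer2a encodes CD23, the low-affinity IgE receptor of follicular B cells. On 1422122_at (chr8:3680280-3694174) it had 431, 585 and 613 in Tnfr-/- lungs, against 163, 263 and 218 in Tnfr+/+ lungs. The difference was 1.35 ± 0.27 (2.55-fold, adjusted p = 0.021). The dimmer Fcer2a probe set had 125, 172 and 22.1 in Tnfr-/- lungs against 10.7, 11.6 and 12.6 in Tnfr+/+ lungs, and did not pass (2.75 ± 0.75, adjusted p = 0.091). Cr2 (1425289_a_at, chr1:195136811-195176880), which encodes complement receptors 1 and 2 in mice and is also present on follicular dendritic cells, had 188, 203 and 241 against 131, 154 and 202. The Cr2 groups overlapped slightly, and the difference of 0.39 ± 0.19 did not pass (adjusted p = 0.38, 95% interval -0.02 to 0.80).

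**Figure D2:**
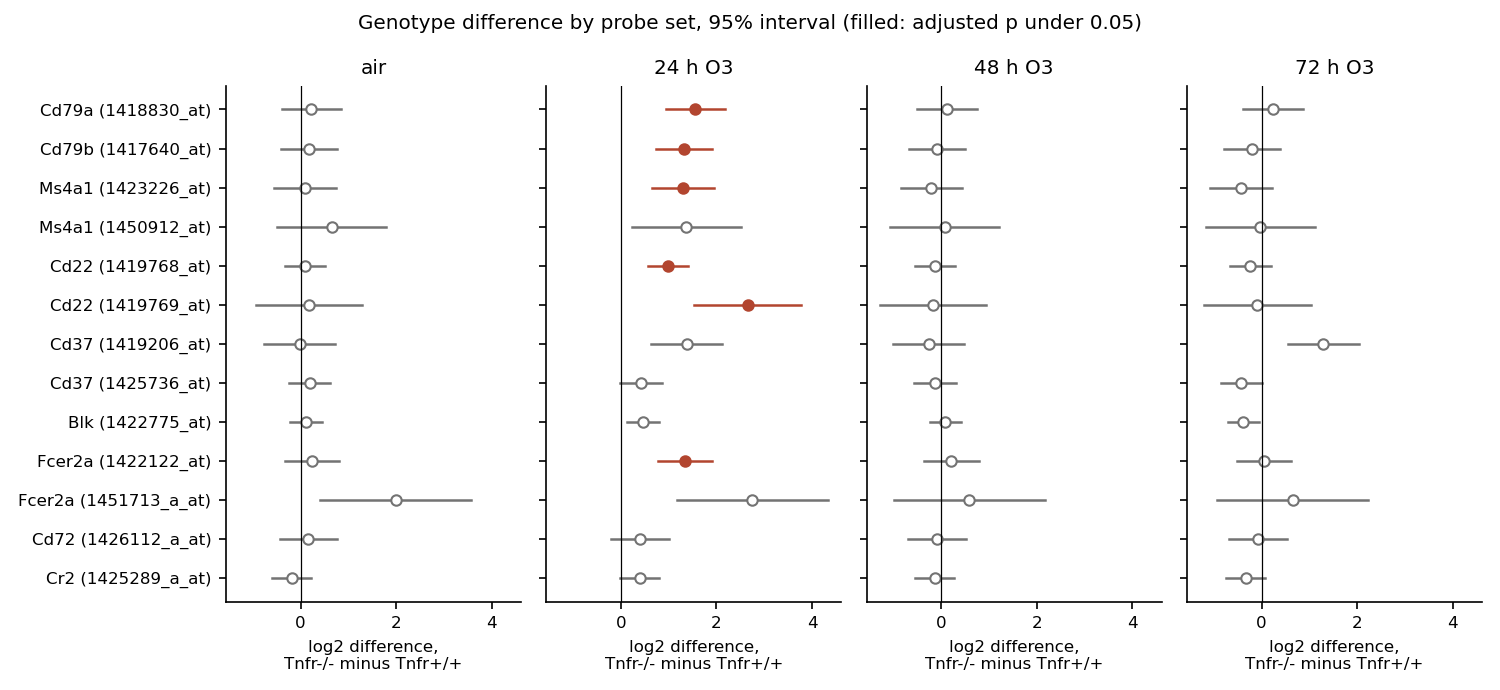
Log2 difference of Tnfr-/- minus Tnfr+/+ lungs (x axis) for the 13 probe sets (y axis) in air and after 24, 48 and 72 h of O3, with 95% intervals from the limma fit and filled points for an adjusted p under 0.05. The 6 filled points are all in the 24 h panel, where every point is to the right of 0.

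The count of 6 rested on single arrays. It was 0 without replicate 1 of Tnfr+/+ 24 h O3 and 0 without replicate 2 of Tnfr-/- 24 h O3, 1 without replicate 3 of Tnfr+/+ or replicate 1 of Tnfr-/- at that time, and 3 without replicate 2 of Tnfr+/+, while the median difference stayed between 1.08 and 1.32. With the 6 arrays of the comparison alone in the fit, 1 probe set passed. The share of all probe sets called in these fits is not given here. A loss of calls particular to the markers thus cannot be told from a general one.

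In air, 0 of the 13 probe sets were called between the genotypes (0.0876% of all probe sets were), and the median difference of the 9 genes was 0.11. It was 0.36 without replicate 2 of Tnfr-/- air, and 0.0074 and 0.017 without replicate 1 or replicate 3 of that group. Cd79a had 872, 485 and 888 in Tnfr-/- and 528, 808 and 547 in Tnfr+/+ lungs in air, with overlapping groups. The same was true of Cd79b, with 923, 519 and 956 in Tnfr-/- and 629, 776 and 654 in Tnfr+/+ lungs. Replicate 2 of the Tnfr-/- air group was the lowest of its 3 arrays in all 13 probe sets. The dimmer Fcer2a probe set, at 86.2, 16.1 and 98.2 in Tnfr-/- and 15.1, 9.87 and 14.7 in Tnfr+/+ lungs, was the only one past an unadjusted p of 0.05 in air (difference 1.99 ± 0.75, adjusted p = 0.54). At 48 h of O3 again 0 were called (0.166% of all), with a median difference of -0.10 and no probe set past an unadjusted p of 0.05. The direction of that median turned without replicate 3 of Tnfr-/- 48 h O3 (0.09) or replicate 1 of Tnfr+/+ 48 h O3 (0.02). At 72 h 0 were called (0.161% of all), with a median difference of -0.19, which was -0.33 without replicate 1 of Tnfr+/+ 72 h O3 and near 0 without its replicate 3.

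The difference between the genotypes at 72 h had no common direction. Cd37 on 1419206_at had 203, 297 and 307 in Tnfr-/- lungs against 88.8, 64.5 and 222 in Tnfr+/+ lungs (difference 1.29 ± 0.35, adjusted p = 0.20). Its other probe set went the other way, with 258, 171 and 204 in Tnfr-/- lungs against 282, 281 and 274 in Tnfr+/+ lungs (-0.42 ± 0.21, adjusted p = 0.46). The 2 probe sets of Cd37 thus disagreed in direction at 72 h. Blk had 241, 276 and 212 in Tnfr-/- and 334, 316 and 294 in Tnfr+/+ lungs, without overlap, and did not pass (-0.38 ± 0.16, adjusted p = 0.39). Without replicate 3 of Tnfr+/+ 72 h O3, the Cd37 difference on 1419206_at was 1.81 and passed.

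Within each genotype, no marker passed between 24 h of O3 and air. In Tnfr-/- lungs, all 13 probe sets were higher after 24 h of O3 than in air, by a median of 0.53 over the 9 genes, but 0 were called (1.10% of all probe sets were), 5 were past an unadjusted p of 0.05 (6.30% of all in that direction) and 5 did not overlap (10.8% of all in that direction). Cd37 (1419206_at) had the lowest p, with 708, 729 and 782 at 24 h against 440, 242 and 413 in air (difference 1.07 ± 0.35, adjusted p = 0.18). Cd79a differed by 0.77 ± 0.30 (adjusted p = 0.26) and Fcer2a (1422122_at) by 0.65 ± 0.27 (adjusted p = 0.32). The median was 0.26 without replicate 2 of Tnfr-/- air, and that array was the lowest of its group in every probe set.

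In Tnfr+/+ lungs, 12 of the 13 probe sets were lower after 24 h of O3 than in air, by a median of -0.38 over the 9 genes, where 0 were called (0.0828% of all) and 3 were past an unadjusted p of 0.05 (2.71% of all in that direction). Ms4a1 (1423226_at) had 305, 348 and 368 at 24 h against 638, 425 and 596 in air (-0.68 ± 0.31, adjusted p = 0.81). Cd79b had 459, 443 and 447 at 24 h against 629, 776 and 654 in air (-0.61 ± 0.28, adjusted p = 0.83). In both, all 3 exposed lungs were below all 3 air lungs, as in 4 of the 13 probe sets and 6.07% of all probe sets.

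Whether O3 acted differently in the genotypes at 24 h was tested as an interaction, the change in Tnfr-/- lungs minus the change in Tnfr+/+ lungs. All 13 estimates were above 0, with a median of 1.11 for the 9 genes, and 7 were past an unadjusted p of 0.05 (3.10% of all probe sets were, in that direction). None passed after adjustment (lowest adjusted p = 0.54), while 2 of all probe sets did (0.00974%). Cd79a had an interaction of 1.32 ± 0.42 (adjusted p = 0.57) and Cd37 (1419206_at) of 1.39 ± 0.50 (adjusted p = 0.64). At 48 and 72 h the interactions gave 0 calls each (0% and 0.00487% of all probe sets), with medians of -0.23 and -0.24. The 24 h genotype difference thus passed for 6 probe sets, and the difference in the response to O3 for none of them.

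The high signals of Tnfr-/- lungs at 24 h were not seen a day later. At 48 h all 13 probe sets were lower than at 24 h in Tnfr-/- lungs, by a median of -1.04 over the 9 genes, and 3 of them fell (Cd79a, Cd22 and Cd37), when 0.0925% of all probe sets were called lower. The arrays of 10 of the 13 did not overlap, against 9.79% of all probe sets in that direction. Cd79a had 431, 496 and 397 at 48 h against 1169, 1504 and 1069 at 24 h (-1.49 ± 0.30, adjusted p = 0.032). Cd22 (1419768_at) had 593, 497 and 501 at 48 h against 1045, 1044 and 1005 at 24 h (-0.96 ± 0.20, adjusted p = 0.043). Cd37 (1419206_at) had 274, 253 and 162 at 48 h against 708, 729 and 782 at 24 h (-1.72 ± 0.35, adjusted p = 0.040). Each of the 3 calls ended when any array of the 6 was left out, with adjusted p up to 0.19. In Tnfr+/+ lungs the same step gave 0 calls (0.200% of all) and a median of -0.02.

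Against air, the later times gave lower rather than higher signals in Tnfr-/- lungs. All 13 probe sets were lower at 48 h (median -0.50) and at 72 h (median -0.42), and 0 were called at either time (3.83% and 3.96% of all probe sets were). Cd22 (1419768_at), at 593, 497 and 501 at 48 h and 477, 523 and 605 at 72 h against 887, 482 and 882 in air, passed at both times without replicate 2 of Tnfr-/- air (-0.74, adjusted p = 0.027 at 48 h and -0.73, adjusted p = 0.028 at 72 h). In Tnfr+/+ lungs 0 were called at 48 h (1.17% of all), and at 72 h Cd37 on 1419206_at was the only one of the 13 called, and it fell (1.26% of all probe sets were called lower). It had 88.8, 64.5 and 222 at 72 h, against 301, 476 and 315 in air (-1.72 ± 0.35, adjusted p = 0.011), while the other Cd37 probe set was at 0.24 ± 0.21 (adjusted p = 0.61). The call ended without replicate 2 of Tnfr+/+ air (adjusted p = 0.060) and stayed without replicate 1 of Tnfr+/+ 72 h O3.

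Averaged over the 4 exposures, 3 probe sets of 2 genes were higher in Tnfr-/- lungs, when 3.17% of all probe sets were called higher. Cd79a differed by 0.54 ± 0.15 (adjusted p = 0.040) and Fcer2a by 0.47 ± 0.135 on 1422122_at (adjusted p = 0.049) and 1.49 ± 0.38 on 1451713_a_at (adjusted p = 0.026). Of these 4 exposures, Cd79a and Fcer2a on 1422122_at passed only at 24 h, and Fcer2a on 1451713_a_at at none. That last probe set reached the signal at the 20th percentile on 6 arrays only. Its Tnfr+/+ group means were 11.6 to 31.6, so its call in the average is unsure. With 1 array left out in turn, 1 probe set passed for 14 of the 24 arrays, replicate 1 of Tnfr+/+ 72 h O3 among them.

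**Figure D3:**
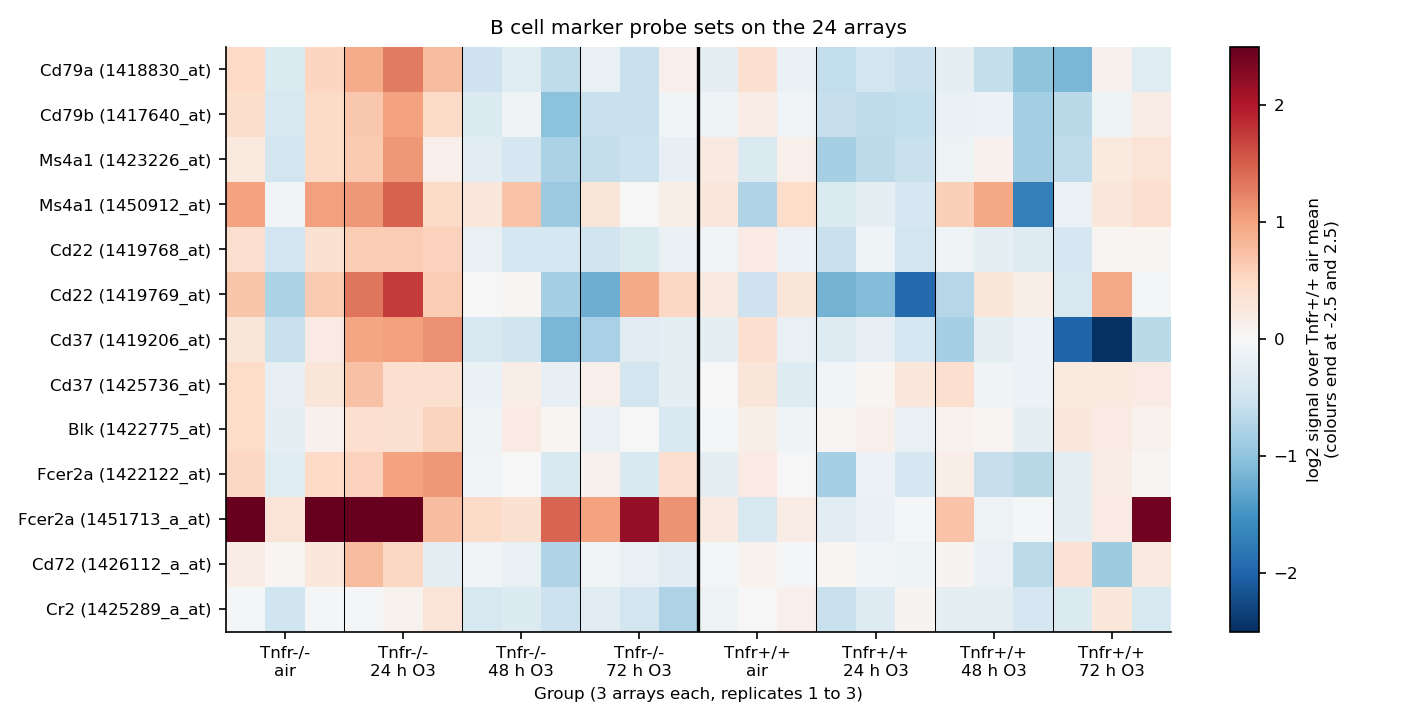
Log2 signal of the 13 probe sets (rows) on the 24 arrays (columns, Tnfr-/- groups left of Tnfr+/+ groups), relative to the mean of the Tnfr+/+ air arrays. The 3 Tnfr-/- 24 h O3 columns are red in most rows, replicate 2 of Tnfr-/- air is blue in most rows where its partners are red, and Cd37 1419206_at is dark blue on replicates 1 and 2 of Tnfr+/+ 72 h O3 (signals of 88.8 and 64.5).

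The markers varied together from array to array, to unequal degrees. Over the 24 arrays, which include the group differences above, the log2 signals of 2 of the 9 genes correlated with r between 0.12 and 0.91 (median 0.58 over 36 pairs, as a description). With the group means taken out the median was 0.32. Cd79b followed the mean profile of the other 8 genes most closely (r = 0.945, and 0.873 within groups), and Cd22 (0.932) and Cd79a (0.904) were near it. Cd72 followed it least (0.489, and 0.099 within groups).

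Of 11588 other genes, those most like the markers over the 24 arrays included several of the B lineage. The 10 with the highest r to the mean profile of the markers were Spib (0.85), Pou2af1 (0.84), Arhgap4 (0.84), Fyb (0.83), Prkcb (0.83), Ly6d (0.82), Il16 (0.80), Ripor2 (0.80), Tnfrsf13b (0.78) and Syk (0.78). Spib encodes an ETS factor of B cells and plasmacytoid dendritic cells, Pou2af1 a B cell coactivator of octamer-binding factors, Ly6d a surface protein that marks B lineage progenitors in mice, and Fyb an adaptor protein of T cells and myeloid cells. Their profile shares the high Tnfr-/- 24 h O3 arrays, so their likeness is a description and no test of that difference.

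Some other genes of B cell biology passed at 24 h of O3, and their counts stand against the 0.584% of all probe sets called higher in Tnfr-/- lungs. Of 20 genes of B cell receptor signaling, 17 were higher in Tnfr-/- than in Tnfr+/+ lungs (median 0.32) and 2 passed, namely Ptpn6, a phosphatase recruited by CD22 and CD72 (936 ± 27.4 against 521 ± 14.8 on the linear scale, SD, log2 0.85 ± 0.19, adjusted p = 0.041), and Plcg2, the phospholipase of the pathway (0.64 ± 0.15, adjusted p = 0.047). The adaptor Blnk (0.70, adjusted p = 0.069), the kinase Syk (0.74, adjusted p = 0.069) and the protein kinase C beta gene Prkcb (1.06, adjusted p = 0.057) did not pass. Of 8 other B cell surface molecules, 1 passed, Ltb, a lymphotoxin subunit made by B and T cells (645 ± 90.1 in Tnfr-/- against 291 ± 75.6 in Tnfr+/+ lungs, 1.17 ± 0.27, adjusted p = 0.043). At 24 h the mean log2 signal of these 8 genes, relative to Tnfr+/+ air, was 0.05 in Tnfr-/- and -0.28 in Tnfr+/+ lungs. Their summed linear signal went the other way, with 10603 to 11313 in Tnfr-/- against 11341 to 12033 in Tnfr+/+ lungs. Of 21 B cell transcription factors, 17 were higher (median 0.33) and 1 passed, Pou2af1 (1.24 ± 0.29, adjusted p = 0.045). Spib was at 0.75 ± 0.21 (adjusted p = 0.11).

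Among 15 genes of B cell attraction and survival, 11 were higher (median 0.16) and 1 passed, against the same 0.584%. This was Tnfrsf13b, which encodes TACI, a receptor for the B cell survival factors BAFF and APRIL and itself a member of the TNF receptor family. It had a mean of 328 ± 29.0 in Tnfr-/- and 123 ± 16.3 in Tnfr+/+ lungs at 24 h (SD, log2 1.42 ± 0.19, adjusted p = 0.0011). At 48 h in Tnfr-/- lungs Tnfrsf13b fell relative to 24 h (-1.05 ± 0.19, adjusted p = 0.024), as did Blnk (-0.90 ± 0.18, adjusted p = 0.035).

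Markers of other leukocytes were read against the same share of 0.584%. Of 15 T cell genes at 24 h of O3, 11 were higher in Tnfr-/- lungs (median 0.21) and 1 passed, Cd2, an adhesion molecule of T and NK cells that mouse B cells also carry (232 ± 84.0 against 95.4 ± 2.13, 1.22 ± 0.29, adjusted p = 0.046). Their summed signal was 2894 to 3619 in Tnfr-/- and 2943 to 3300 in Tnfr+/+ lungs, so the groups overlapped. The 11 NK and cytotoxic cell genes had 3 higher and 8 lower in Tnfr-/- lungs (median -0.36, 0 called). Of 10 plasma cell genes 1 passed, Pou2af1, which was on that list too (median 0.09), and of 9 genes of MHC class II presentation 0 passed (median 0.19). None was called among 7 genes of follicular dendritic cells and lymphoid vessels (median -0.01), 9 of dendritic cells (-0.10), 10 of macrophages and monocytes (0.08), 9 of neutrophils (0.30), 5 of the thymus (0.12) and 12 of lung epithelium and endothelium (-0.03). The part of other lymphoid cells or tissue in the B cell marker difference was not tested.

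**Figure D4:**
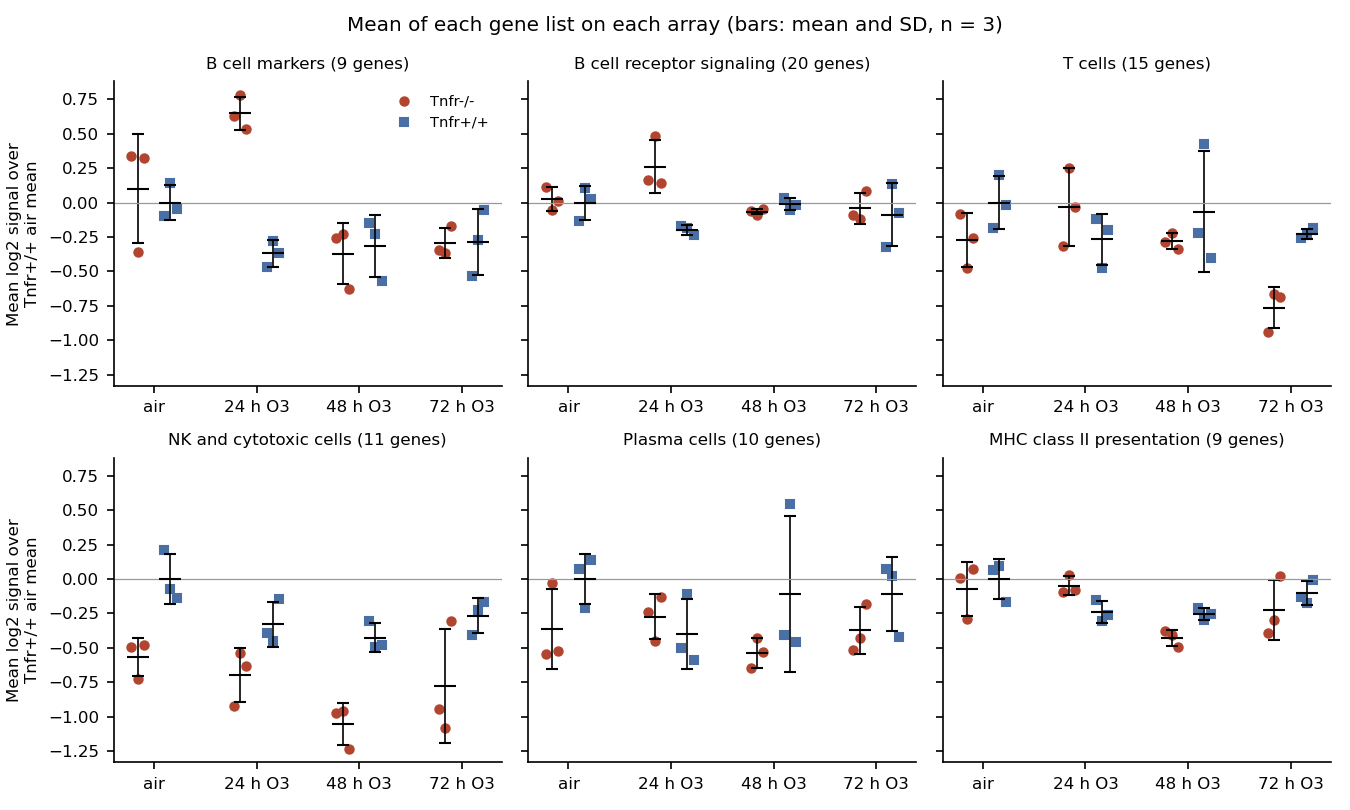
Mean log2 signal of 6 gene lists on each array, relative to the mean of the Tnfr+/+ air arrays, by exposure, with Tnfr-/- (circles) left of Tnfr+/+ (squares) and bars for mean and SD (n = 3). The B cell markers lie between 0.54 and 0.78 in Tnfr-/- lungs and between -0.47 and -0.28 in Tnfr+/+ lungs at 24 h of O3, whereas the T cell, plasma cell and MHC class II lists are closer together there and the NK list is lower in Tnfr-/- lungs at most times.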

How the data were processed

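Lung RNA of 24 mice was hybridised to Affymetrix MOE430A arrays. The authors deposited 1 intensity per probe set and array, on a linear scale, made with MAS5 in Affymetrix Expression Console according to the submitters' processing notes. No detection calls were used here, so low signals were judged by the percentile of the array. From these, quantile normalization across the 24 arrays, a floor of 1 and a log2 step gave the values tested. The 64 control probe sets were left out, and 20537 probe sets that reached the 20th percentile of any 1 array were kept, as in the study's methods. One limma model (version 3.58.1, moderated by eBayes, R version 4.3.3) estimated the 8 group means, with Benjamini-Hochberg adjustment over all probe sets kept and 16 residual and 2.38 prior degrees of freedom. The number of arrays, 3 per group, limits the precision.

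Probe sets were named through the platform annotation (20338 with 1 gene, 691 with several, 1551 not listed). A gene stood for its probe set with the highest mean, and all 13 probe sets of the 9 markers are given. Members of the 14 other gene lists are named where called, otherwise at most 4 per list by p, and the 10 genes of like pattern are those with the largest Pearson r. The markers, lists and comparisons were chosen with earlier results of these data known, and the promoter motifs with the sequences in view. Data were simulated for the 24 h genotype comparison, with 20537 probe sets and 200 of them, drawn at random, changed. Of those changed by 1 on the log2 scale 56% were recovered, and of those changed by 2, 85%, with 11 false calls (7.24% of calls). The simulated noise was normal and independent between probe sets, whereas the markers varied together, so these rates need not hold for the markers. Alternatives were other scalings, no filter, a floor at 16, array weights, the replicate number as a block and the arrays of a comparison alone. Others were an ordinary t-test with equal variances, unadjusted thresholds (0.01 for O3 against air and between times, 0.05 otherwise), the mean over probe sets, and leaving out each array. The methods name a t-test for O3 effects in Tnfr+/+ lungs and for genotype in air. Figure and table notes of the study call that test moderated, so the ordinary t-test here is not the study's own. For genotype under O3 the methods name a two-way analysis with Benjamini-Hochberg adjustment. The t-test and unadjusted thresholds are thus an extension in the other comparisons.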

Additional observations from a re-analysis of the deposited data

Results flagged for a closer look

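For 10 effects of O3 on B cell marker probe sets, the exposed lungs of the genotypes moved opposite ways from their air means (9 of the 10) or the limma interaction test gave an unadjusted p under 0.05 (9 of the 10), and none of the 10 passed after Benjamini-Hochberg adjustment (adjusted p between 0.54 and 0.87). At 24 h the change in Tnfr-/- lungs minus that in Tnfr+/+ lungs was 1.32 ± 0.42 (SE) for Cd79a, 1.15 ± 0.40 for Cd79b, 1.22 ± 0.44 for Ms4a1 (1423226_at), 0.89 ± 0.28 for Cd22 (1419768_at), 2.47 ± 0.75 for Cd22 (1419769_at), 1.39 ± 0.50 for Cd37 (1419206_at) and 1.11 ± 0.38 for Fcer2a (1422122_at). In each of these, all 3 exposed Tnfr-/- lungs were above their air mean and all 3 exposed Tnfr+/+ lungs below theirs, which is part of the rule that picked them.

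At 72 h the order was the other way for Blk (-0.49 ± 0.22) and for Cd37 on 1425736_at (-0.61 ± 0.29, unadjusted p = 0.051), where all exposed Tnfr-/- lungs were below their air mean and all exposed Tnfr+/+ lungs above theirs. Cd37 on 1419206_at had an interaction of 1.30 ± 0.50 at 72 h, with exposed lungs of both genotypes below their air means, so its 2 probe sets differed in sign. The Tnfr-/- air mean includes replicate 2, the lowest of its 3 arrays for every B cell marker.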

How the results depend on the processing

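The number of B cell marker probe sets called depended on the settings. Medians with each array left out in turn kept their sign in most comparisons, but they ranged between 0.0074 and 0.36 for the genotypes in air, between -0.18 and 0.09 at 48 h and between -0.33 and -5.3e-05 at 72 h, between -0.19 and 0.04 for Tnfr+/+ 72 h O3 against air, between -0.08 and 0.15 for Tnfr+/+ 48 h against 24 h and between -0.40 and -0.02 for the interaction at 48 h. For Tnfr-/- against Tnfr+/+ lungs at 24 h of O3, the 6 calls became 1 with the arrays of the comparison alone. They became 0 with an ordinary t-test after Benjamini-Hochberg adjustment and 11 with that t-test unadjusted. At unadjusted p in the same fit there were 10, all higher (7.07% of all probe sets in that direction). With each array left out in turn there were 0 to 6. The median stayed between 1.08 and 1.33 throughout. For 48 h against 24 h in Tnfr-/- lungs, the 3 calls became 0 with the replicate block and 0 with the arrays alone. They became 0 and 5 with the adjusted and unadjusted t-test, and 0 to 3 with each array left out. At unadjusted p there were 6, all lower (1.23% of all in that direction). For the mean of the 4 exposures, 3 became 1 with the replicate block, 6 at unadjusted p (22.5% of all) and 1 to 4 with each array left out. For Tnfr+/+ 72 h O3 against air, 1 became 0 with array weights, the arrays alone and either t-test, and 0 to 1 with each array left out. Comparisons with 0 calls gave 1 with the unadjusted t-test (Tnfr+/+ 24 h O3 against air, and the genotypes at 72 h). At unadjusted p, 1 was higher for Tnfr-/- 24 h O3 against air (2.66% of all in that direction) and for the genotypes in air (3.30%). The genotypes at 72 h (11.1% in either direction) and the interaction at 72 h (5.31%) gave 2 each, 1 higher and 1 lower. The interaction at 24 h gave 7, all higher (3.10% in that direction). Counts were 0 to 1 with each array left out for Tnfr-/- 48 h or 72 h O3 against air and for the genotypes at 72 h. The share of all probe sets called is not given here for the t-test, array weights, the replicate block, the arrays alone or arrays left out. The cause of these changes in count was not tested. No called value changed sign among 3471 recomputed values of single probe sets, of which 117 were no longer called and 14 newly called, while 144 values that were not called changed sign. Under each scaling, the median log2 difference of all probe sets was at most 0.06 in size in every comparison. Replicate numbers did not pair the mice (r of deviations between -0.18 and 0.11, and 0 of 28 pairs of groups with every r over 0.1), and the replicate block moved no other count of calls. With 3 arrays a group, low probe sets such as Fcer2a 1451713_a_at, kept through 6 arrays, are limited by their signal.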

Other observations

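Genes of NK and cytotoxic cells were lower in Tnfr-/- lungs. Averaged over the 4 exposures, all 11 were lower in Tnfr-/- than in Tnfr+/+ lungs (median -0.47 on the log2 scale) and 6 fell in the limma fit with Benjamini-Hochberg adjustment, when 2.47% of all probe sets were called lower, among them the granzymes Gzma (-1.19 ± 0.21, SE, adjusted p = 0.0032) and Gzmb (-0.72 ± 0.15, adjusted p = 0.010) and the chemokine Ccl5 (-0.70 ± 0.11, adjusted p = 0.0014). After 24 h of O3 their summed signal was 1879 to 2654 in Tnfr-/- and 2627 to 3493 in Tnfr+/+ lungs. In air it was 2017 to 2520 in Tnfr-/- and 3346 to 4455 in Tnfr+/+ lungs.

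Of 15 T cell genes in the same average, 1 passed, a share near that of all probe sets (5.65% in either direction). Cd3d, a chain of the T cell receptor complex, was lower in Tnfr-/- lungs (-1.45 ± 0.22, adjusted p = 8.9e-04). Jchain, which joins secreted immunoglobulins and is made by plasma cells, was also lower (-1.40 ± 0.39, adjusted p = 0.040), while Tnfrsf13b (0.61 ± 0.10, adjusted p = 0.0016) and Cxcr4, a chemokine receptor of B cells and other leukocytes (0.66 ± 0.18, adjusted p = 0.037), were higher. Jchain, Tnfrsf13b and Cxcr4 are single genes taken from longer lists, and the directions of the other members in this average are not given here.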
